A study of Homo sapiens with 16 samples.

Results

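The CCR4-NOT complex is the main enzyme that shortens poly(A) tails in the cytoplasm of human cells. CNOT1 is a long scaffold that holds the other subunits, and each complex carries exonucleases of 2 families, the CCR4 type (CNOT6 or CNOT6L) and the CAF1 type (CNOT7 or CNOT8). Adaptor proteins such as GW182, Pumilio and tristetraprolin bring it to particular mRNAs, so that it is a shared step of microRNA silencing and of regulated mRNA decay. The data below concern the mRNAs that encode this complex, not the protein. The 10 genes described were taken by symbol from the deposited gradient table of 13148 genes, and all 10 were present: CNOT1, CNOT2, CNOT3, CNOT4, CNOT6, CNOT6L, CNOT7, CNOT8, CNOT10 and RQCD1, the older symbol of CNOT9. The catalytic members were CNOT6, CNOT6L, CNOT7 and CNOT8. The 5 noncatalytic core members were CNOT1, CNOT2, CNOT3, CNOT10 and RQCD1, and CNOT4, a ubiquitin ligase that binds the human complex only loosely, was kept on its own.

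The cells were 293S, an established human line derived from HEK293. One culture condition was untreated and the other received 1 mM sodium arsenite for 30 minutes, a treatment that causes oxidative stress and lowers translation. The RNA of each condition was spread over a sucrose gradient and sequenced as 8 fractions, so that each of the 16 libraries is the single measurement of its treatment and fraction. Without replicates, no difference could be set against the spread between repeat gradients, and p-values are not reported. Each deposited value is a share, the part of a gene's total in its gradient that lay in a given fraction, so the level of an mRNA and the read depth behind a share are unknown. None of the 10 genes had a share of 0 in any library, whereas arsenite fraction 3 listed 728 genes of the table at 0. The labels number the fractions without saying which end of the gradient was fraction 1.

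CNOT6 and CNOT6L, and likewise CNOT7 and CNOT8, are related genes, and reads from a shared stretch could have been counted for either. The coding parts of CNOT6 (1671 nt) and CNOT6L (1665 nt) were identical at 73.0% of 1650 aligned bases, and their longest shared run was 20 nt. For CNOT7 (855 nt) and CNOT8 (876 nt) the values were 70.3% of 855 aligned bases and again 20 nt. The stretch of CNOT6 and CNOT6L around that longest run is shown, coding bases 919 to 978 in both (codons 307 to 326, GENCODE 29 transcripts), to show how closely the 2 mRNAs resemble each other there. Capitals mark the 6 bases that differ.
CNOT6: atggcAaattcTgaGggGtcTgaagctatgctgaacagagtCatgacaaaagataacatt
CNOT6L: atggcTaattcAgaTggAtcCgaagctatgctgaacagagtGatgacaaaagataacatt
The untranslated parts were not compared. Neither the length of the reads nor the way shared reads were counted is stated in the labels or the table.

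All 10 mRNAs lay at lower fraction numbers with arsenite than without, as did 98.3% of all genes. Position here is the mean fraction number of an mRNA, weighted by its shares. The median position of the 10 was 4.70 without arsenite and 3.03 with it, and over all genes it was 4.54 and 3.10. Fractions 5 to 8 held a median of 60.9% of the members' totals in the control and of 18.5% with arsenite, against 53.9% and 16.4% over all genes. This share was lower with arsenite for all 10 members and for 95.7% of all genes. As a group, the CCR4-NOT mRNAs thus lay close to the typical gene in both gradients. How far the typical gene appears to shift depends on the weight given to each fraction. Scaling by median-of-ratios size factors, so that a typical gene has the same value in all 16 libraries, changed the all-gene median shift from −1.46 to −0.23 fractions. With this scaling 6 of the 10 members had a negative shift and 4 a positive one, and 58.8% of all genes had a negative shift. Members are therefore compared by the relative shift, the change in position minus that of the median gene.

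**Figure D1:**
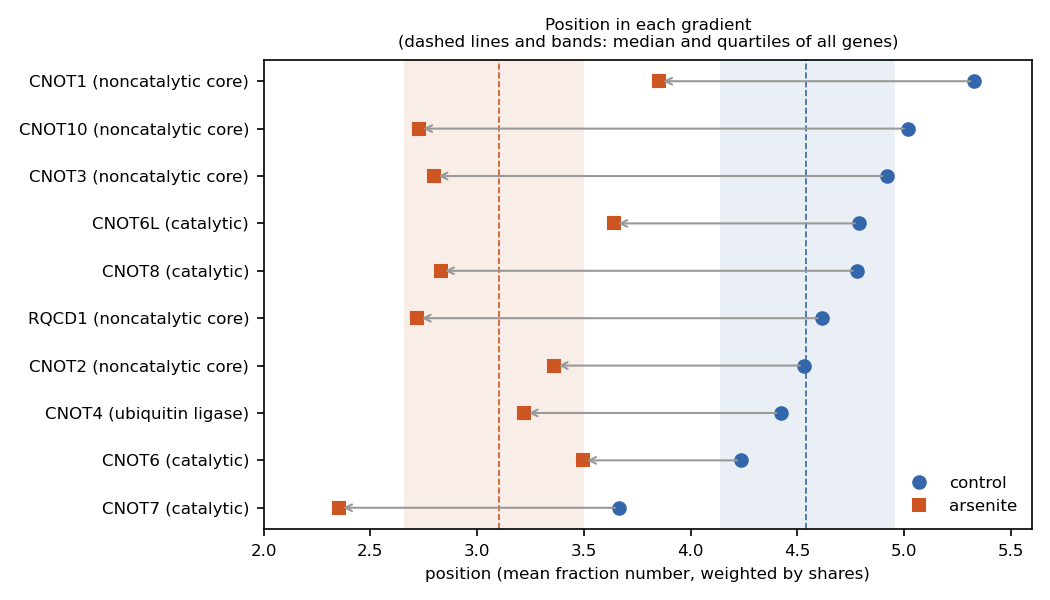
Position of each CCR4-NOT mRNA (mean fraction number on the x axis) in the control gradient (circles) and the arsenite gradient (squares), 1 gradient each. Every arrow points to lower numbers. CNOT1 lies furthest along in both gradients, at 5.33 and 3.85, and CNOT7 lies lowest in both, at 3.66 and 2.35.

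In untreated cells the 10 positions ranged from 3.66 for CNOT7 to 5.33 for CNOT1. CNOT7 lay lower than all but 7.52% of genes, and CNOT1 lay higher than 89.8% of them. Between these ends the order was CNOT6 at 4.24, CNOT4 at 4.42, CNOT2 at 4.53, RQCD1 at 4.62, CNOT8 at 4.78, CNOT6L at 4.79, CNOT3 at 4.92 and CNOT10 at 5.02. With no replicate, neighbours in this order cannot be separated from each other. The catalytic members had a median of 4.51 and the noncatalytic core members one of 4.92, and their ranges overlapped, with CNOT6L and CNOT8 above CNOT2 and RQCD1.

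With arsenite, 5 members had their largest deposited share in fraction 2 and the other 5 in fractions 3 to 5. The mRNAs of CNOT3, CNOT7, CNOT8, CNOT10 and RQCD1 all had their largest share in fraction 2, at 50.2%, 46.2%, 40.2%, 37.7% and 41.1%. Those of CNOT1, CNOT4 and CNOT6 had theirs in fraction 3, CNOT6L in fraction 4 and CNOT2 in fraction 5, at 25.3%, 30.2%, 37.8%, 29.4% and 21.6%. Over all genes, fraction 2 was the largest for 34.5% and fraction 3 for 37.2%. Catalytic and noncatalytic members were found on both sides. In fractions 1 to 3 together the 10 mRNAs had between 42.7% (CNOT1) and 86.0% (CNOT7) of their total, beside a median of 67.5% and quartiles of 54.5% and 79.1% over all genes. The place of the peak depended on the scaling. With size factors CNOT3 and RQCD1 still had their largest arsenite share in fraction 2, but CNOT7, CNOT8 and CNOT10 had it in fraction 1, at 33.4%, 18.7% and 24.3%. CNOT1 then peaked in fraction 7, CNOT4 and CNOT6 in fraction 6, CNOT2 in fraction 5 and CNOT6L in fraction 4.

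**Figure D2:**
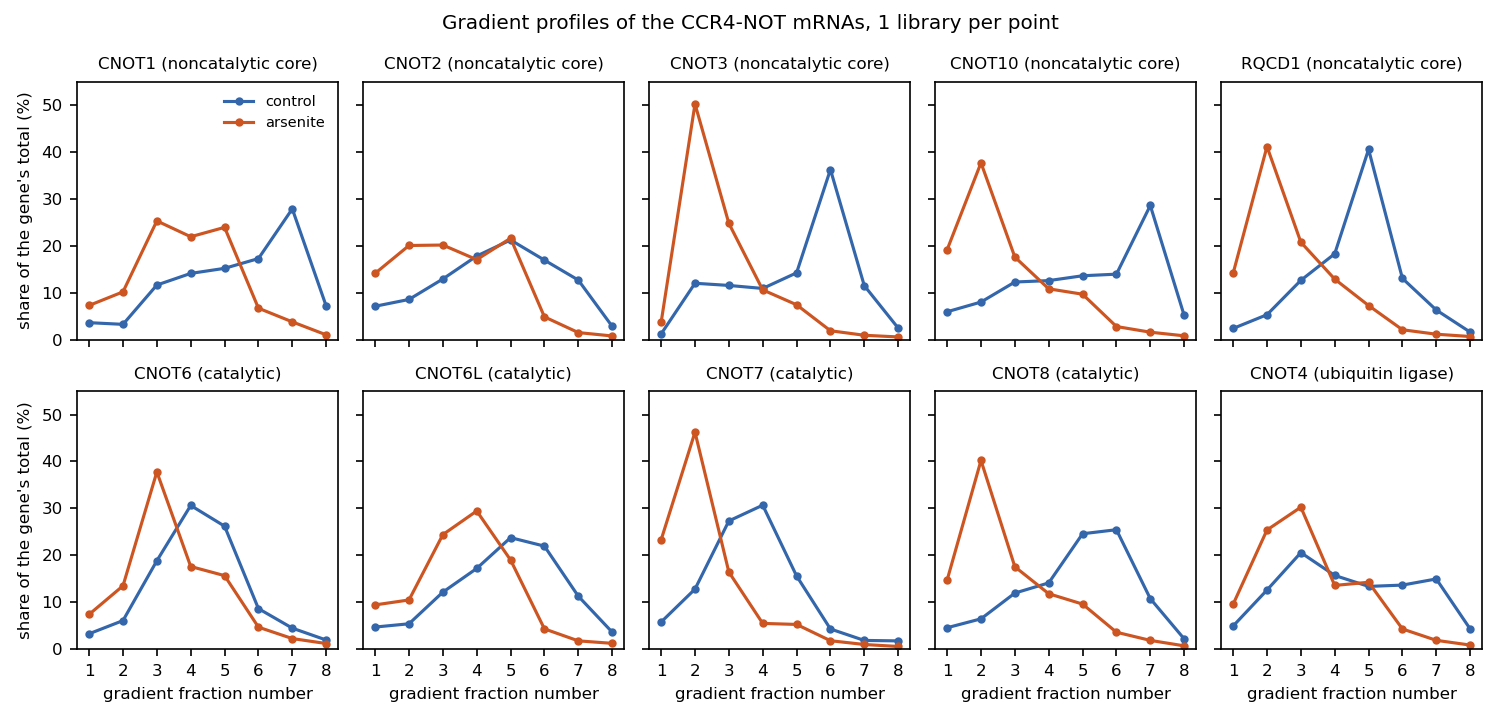
Share of each gene's total (y axis, %) in fractions 1 to 8 (x axis) of the control and arsenite gradients, 1 library per point. CNOT3, CNOT7, CNOT8, CNOT10 and RQCD1 have their largest deposited arsenite share in fraction 2, from 37.7% to 50.2% (in fraction 1 for CNOT7, CNOT8 and CNOT10 with size factors), while the arsenite profiles of CNOT1, CNOT2, CNOT4, CNOT6 and CNOT6L peak in fractions 3 to 5 (4 to 7 with size factors).

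Genes were called moved if the relative shift reached 0.5 fractions in either direction and had the same sign in all 8 results that each omit 1 fraction from the 2 gradients. Of the 10 members, 1 moved higher (CNOT6), 2 moved lower (CNOT3 and CNOT10) and 7 met neither rule. Over all genes 23.6% moved higher and 24.0% lower, 47.6% in all, so the members were called no more often than genes in general. With size factors 1 member moved higher and 3 lower (RQCD1 in addition), against 28.7% and 26.4% of all genes. The median relative shift of the 10 was 0.06, and 5 of them were negative. The catalytic members had a median of 0.23 (range −0.49 to 0.71) and the noncatalytic core members one of −0.44 (range −0.84 to 0.29). The difference of these medians, 0.66 fractions, was 0.70 with size factors but 0.35 without fraction 2, 0.47 without fraction 6 and 0.45 without fraction 7. The ranges overlapped: the catalytic CNOT8 lay with the lower noncatalytic members, and the noncatalytic CNOT2 with the higher catalytic ones. Catalytic members also started lower, at a median of 4.51 against 4.92. Genes within 0.1 of the control position of CNOT6, CNOT6L, CNOT7 and CNOT8 had median relative shifts of 0.25, −0.17, 0.54 and −0.16. For CNOT1, CNOT2, CNOT3, CNOT10 and RQCD1 these medians were −0.51, 0.04, −0.27, −0.33 and −0.03. How much of the difference of 0.66 goes with the start was not tested.

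**Figure D3:**
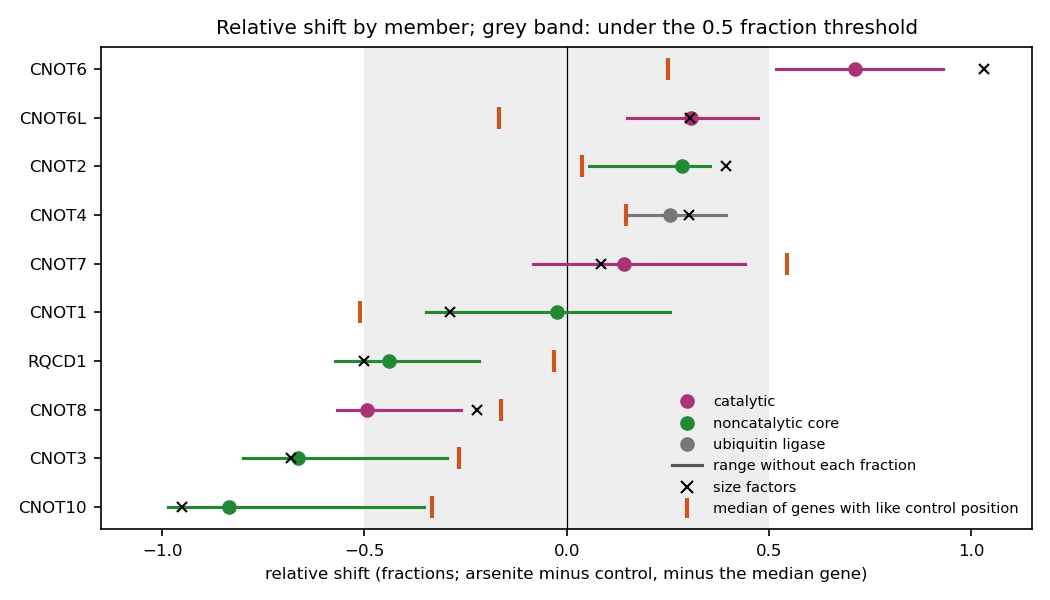
Relative shift of each member in fractions (points, coloured by role), with the range over the 8 results that each leave out 1 fraction (lines), the value with size factors (crosses) and the median of genes within 0.1 of the same control position (orange bars). CNOT6 stays above 0.5 throughout, at 0.71 with a lowest value of 0.52. CNOT3 and CNOT10 lie below −0.5 but reach −0.30 and −0.35 without 1 fraction.

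CNOT6, a CCR4-type exonuclease, was the member that moved higher. Its shares in control fractions 1 to 8 were 3.27%, 6.08%, 18.8%, 30.6%, 26.2%, 8.63%, 4.47% and 1.93%. With arsenite they were 7.40%, 13.5%, 37.8%, 17.6%, 15.7%, 4.67%, 2.24% and 1.19%. The peak thus passed from fraction 4 to fraction 3, and the share in fractions 5 to 8 went from 41.2% to 23.8%. The position went from 4.24 to 3.50, a relative shift of 0.71 (1.03 with size factors). Leaving out fractions in turn gave 0.52 to 0.93, so the call did not rest on 1 fraction. Among the 1490 other genes that started within 0.1 fractions of CNOT6, 31.9% moved higher and the median relative shift was 0.25.

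CNOT6L, the closest relative of CNOT6, started further along and did not meet the rule. Its control shares were 4.70%, 5.39%, 12.1%, 17.2%, 23.8%, 21.9%, 11.3% and 3.62%. Its arsenite shares were 9.42%, 10.5%, 24.4%, 29.4%, 19.0%, 4.30%, 1.75% and 1.22%. The peak of these deposited shares was in fraction 5 and then in fraction 4, 1 fraction above that of CNOT6 in each gradient. The position went from 4.79 to 3.64, a relative shift of 0.31 (0.30 with size factors). When position was instead taken as the 50% point, where the summed shares pass 50%, the relative shift was 0.56 and CNOT6L was called higher. In the main comparison CNOT6L lay above 80.1% of the 1499 genes that started near it, whose median was −0.17. Only 11.1% of those genes moved higher. CNOT6 lay above 82.8% of the genes near its own start. Set beside genes with a like start, CNOT6 and CNOT6L thus ranked almost alike, although only CNOT6 met the rule. The arsenite position of CNOT6L was higher than that of 82.5% of genes and that of CNOT6 than that of 74.8%. With size factors the order with arsenite was the opposite. CNOT6 then lay at 4.98 with its peak in fraction 6, and CNOT6L at 4.89 with its peak in fraction 4.

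CNOT7 and CNOT8, the CAF1-type exonucleases, have coding parts of nearly the same length but lay far apart in untreated cells. The control shares of CNOT7 were 5.77%, 12.8%, 27.3%, 30.7%, 15.6%, 4.28%, 1.85% and 1.75%, so most of this mRNA was in fractions 3 and 4. Those of CNOT8 were 4.55%, 6.45%, 11.9%, 14.1%, 24.6%, 25.4%, 10.8% and 2.18%, with the peak in fractions 5 and 6. Accordingly 23.5% of CNOT7 and 63.0% of CNOT8 lay in fractions 5 to 8. Genes in the same decile by coding length (777 to 996 nt) had a median control position of 4.41, below which CNOT7 lay by far (3.66) and above which CNOT8 lay (4.78).

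With arsenite the profiles of CNOT7 and CNOT8 were nearer to each other. The arsenite shares of CNOT7 were 23.3%, 46.2%, 16.4%, 5.47%, 5.26%, 1.78%, 0.98% and 0.553%. Those of CNOT8 were 14.7%, 40.2%, 17.5%, 11.8%, 9.59%, 3.59%, 1.85% and 0.689%. Both were highest in fraction 2, with smaller shares in each later fraction. The distance between 2 profiles, the percentage of one mRNA's total that would have to change fraction to give the other, was 39.5% for CNOT7 and CNOT8 in the control and 14.6% with arsenite (35.0% and 20.4% with size factors). CNOT8 went from 4.78 to 2.83, a relative shift of −0.49 that fell just short of the threshold (−0.22 with size factors). It passed the threshold without fraction 1, 3, 4, 5, 7 or 8, with values from −0.52 to −0.57, and at the 50% point, where it was −0.83. The relative shift of CNOT7 was 0.14 (0.09 with size factors), between −0.08 without fraction 7 and 0.44 without fraction 4. The 577 genes that started near CNOT7 had a median of 0.54 and 51.5% of them moved higher, and CNOT7 lay above only 27.9% of these.

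CNOT6L and CNOT8, an enzyme of each family, had the most alike control profiles of all 45 pairs of members and parted with arsenite. They were 5.38% apart in untreated cells and 35.1% apart with arsenite (7.19% and 24.8% with size factors). The positions of 4.79 and 4.78 became 3.64 and 2.83. In arsenite fraction 2, CNOT6L had 10.5% of its total and CNOT8 40.2%. In fraction 4 the order was the opposite, with 29.4% for CNOT6L and 11.8% for CNOT8. This pair was picked for its small control distance, so a larger distance with arsenite is by itself no result. The next most alike control pair, CNOT2 with CNOT6L, went from 8.34% to 17.4% (10.7% and 15.4% with size factors). CNOT1 with CNOT10 came after it and went from 8.45% to 39.4%.

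CNOT1, the scaffold, has the longest coding part of the 10 (7128 nt) and lay at the highest fraction numbers. Its control shares were 3.59%, 3.24%, 11.6%, 14.1%, 15.2%, 17.3%, 27.9% and 7.17%. Its arsenite shares were 7.27%, 10.2%, 25.3%, 21.9%, 23.9%, 6.68%, 3.77% and 1.00%. With arsenite 35.4% was still in fractions 5 to 8, more than for 90.1% of genes. The relative shift was −0.02, and it was −0.29 with size factors and between −0.35 without fraction 5 and 0.25 without fraction 7, so no direction can be given. The 728 genes that started near CNOT1 had a median of −0.51 and 50.4% of them moved lower, and CNOT1 lay above 80.1% of these. Genes in the decile with the longest coding parts, from 3585 nt, lay at a median of 3.84 with arsenite, beside 3.85 for CNOT1, and had a median relative shift of 0.32 (0.09 with size factors).

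CNOT10, which with CNOT11 forms a module at the start of CNOT1, had a control profile close to that of CNOT1 and moved lower. Its control shares were 5.92%, 7.99%, 12.3%, 12.6%, 13.6%, 13.9%, 28.6% and 5.16%. Its arsenite shares were 19.1% (fraction 1), 37.7%, 17.6%, 10.8%, 9.66%, 2.77%, 1.57% and 0.793%. Both CNOT1 and CNOT10 thus had their control peak in fraction 7, at about the same height, but with arsenite only CNOT10 was concentrated in fractions 1 and 2. They were 8.45% apart in untreated cells and 39.4% apart with arsenite (11.5% and 31.3% with size factors). CNOT10 went from 5.02 to 2.73, a relative shift of −0.84 (−0.95 with size factors). Without fraction 7 it was −0.35 and the call was lost, so it rested in part on that fraction. The 1244 genes that started near CNOT10 had a median of −0.33, and 37.6% of them moved lower. The partner CNOT11, listed as C2orf29 and not among the 10, lay at 4.70 and 2.74, with a relative shift of −0.50 just short of the threshold (−0.22 with size factors) and 45.3% of its total in arsenite fraction 2.

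CNOT2 and CNOT3, which bind each other in the NOT module of the complex, differed from each other. CNOT3 had control shares of 1.20%, 12.0%, 11.5%, 10.9%, 14.2%, 36.2%, 11.5% and 2.46%. With arsenite its shares were 3.68%, 50.2%, 24.8%, 10.6%, 7.41%, 1.88%, 0.911% and 0.555%. It had the highest arsenite share in fraction 2 of the 10 and the largest loss from fractions 5 to 8, from 64.4% to 10.8%. The relative shift was −0.66 (−0.68 with size factors), but −0.39 without fraction 2 and −0.30 without fraction 6, where the call was lost. Of the 1379 genes that started near CNOT3, 33.6% moved lower, and their median was −0.27. CNOT2 had control shares of 7.09%, 8.54%, 12.9%, 17.8%, 21.2%, 16.9%, 12.7% and 2.82%. With arsenite its shares were 14.1%, 20.0%, 20.1%, 17.0%, 21.6%, 4.83%, 1.48% and 0.762%. These deposited arsenite shares were nearly even over fractions 2 to 5, but with size factors they were 8.09% in fraction 2 and 20.4% in fraction 5. In the deposited shares, only 26.1% of the CNOT2 total changed fraction between the gradients, the smallest value among the members (CNOT3: 53.9%, median of all genes: 44.6%). The relative shift of CNOT2 was 0.29 (0.39 with size factors) and positive without each fraction in turn. The distance between CNOT2 and CNOT3 was 22.8% in the control and 34.8% with arsenite.

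RQCD1 (CNOT9), the subunit that binds GW182 proteins, had 40.5% of its total in control fraction 5, the highest control share of any member in 1 fraction. In the other control fractions it had between 1.59% (fraction 8) and 18.3% (fraction 4). With arsenite it had 41.1% in fraction 2 and 7.25% in fraction 5, and 55.7% of its total changed fraction, the most among the members. The position went from 4.62 to 2.72 and the relative shift was −0.44. It passed the threshold with size factors (−0.50), without fractions 3, 4 or 7 (−0.54, −0.52 and −0.57) and at the 50% point (−0.59). CNOT4, the ligase, had a broad control profile, with 12.6% to 20.6% in each of fractions 2 to 7. It went from 4.42 to 3.22, with a relative shift of 0.26 (0.30 with size factors) close to the 0.15 of the 1800 genes that started near it.

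Over the 45 pairs of members, the median distance was 23.2% without arsenite and 21.7% with it, and 20 pairs were nearer to each other with arsenite than without (29 pairs with size factors). The 2 nearest arsenite pairs were CNOT8 with CNOT10 (4.64%) and CNOT8 with RQCD1 (5.20%). In the control the same pairs were 24.0% and 20.8% apart. With size factors these distances with arsenite were 7.09% and 10.1%, and CNOT4 with CNOT6 (8.92%) and CNOT10 with RQCD1 (9.66%) were then nearer than CNOT8 with RQCD1. The furthest pair was CNOT1 with CNOT7, at 44.4% in the control and 52.1% with arsenite. With size factors these distances were 52.2% and 46.3%, a change in the opposite direction. Paralogs were not each other's nearest genes. Over both gradients, 23.2% of all other genes were nearer to CNOT6 than CNOT6L was, and 26.6% were nearer to CNOT6L than CNOT6 was. For CNOT7 and its paralog CNOT8 the value was 24.2%, and for CNOT8 and its paralog CNOT7 it was 57.1%.

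**Figure D4:**
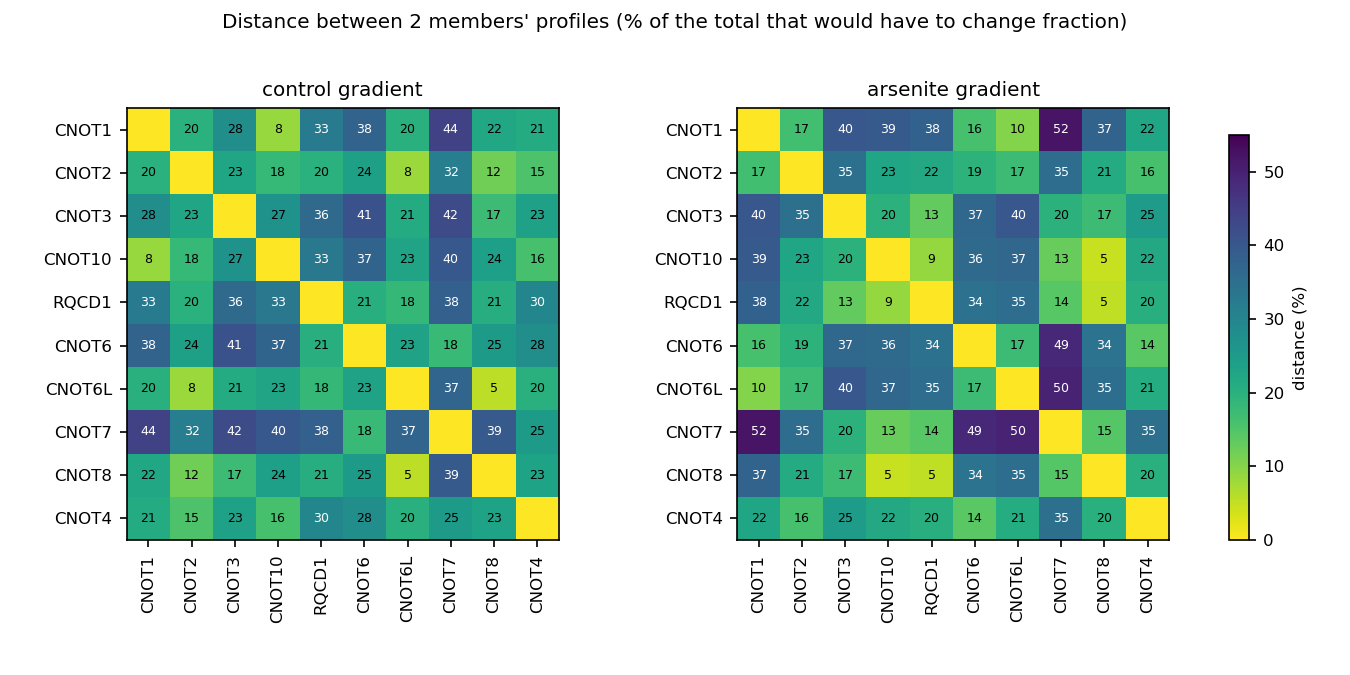
Distance between the profiles of each 2 members in the control gradient (left) and the arsenite gradient (right), as the percentage of the total that would have to change fraction (colour and number). CNOT6L and CNOT8 are 5% apart in the control and 35% apart with arsenite, while CNOT8, CNOT10 and RQCD1 lie 5% to 9% from each other with arsenite.

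For each member the 2 genes with the most alike profiles over the 16 libraries were looked up among the genes with no share of 0. For CNOT6 these were SEC22C and TGFBR1 (mean distances of 3.06% and 3.47%), for CNOT6L BTN2A2 and ADAM9 (5.25% and 5.84%), for CNOT7 PDCD2 and FAM100B (5.14% and 5.68%) and for CNOT8 DSN1 and LACTB (5.54% and 5.80%). CNOT1 was nearest to ATP7B and KIDINS220 (4.13% and 4.16%), CNOT2 to ATAD1 and MEIS2 (4.30% and 4.33%) and CNOT10 to C5orf34 and SLC38A9 (5.75% and 6.67%). For RQCD1 they were ZNF259 and TXNDC15 (3.94% and 5.18%), and for CNOT4 FBXO30 and ZNF274 (3.98% and 4.72%). CNOT3 was nearest to CCRN4L (4.75%), which encodes nocturnin, a relative of the CCR4 enzymes, and then to DPF2 (5.18%). The median distance of a member to all genes was between 23.2% for CNOT4 and 34.4% for CNOT7. These genes were picked by this same distance, so their nearness is a description.

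Other genes of the deadenylation pathway were followed as lists. Of 8 measured deadenylases and relatives of the CCR4 enzymes outside the complex, 2 moved higher and none lower, against 23.6% and 24.0% of all genes, and the median relative shift was −0.17 (−0.09 with size factors). PAN3, which brings the PAN2 nuclease to poly(A) tails, lay at 0.77 (1.24 with size factors), and ANGEL2, such a relative, at 0.58. The lowest was CCRN4L, at −0.45 (−0.21 with size factors), which did not meet the rule. Among 5 adaptors of the BTG and TOB family, which tie the CAF1 enzymes to regulators, 1 moved lower and none higher (all genes: 24.0% and 23.6%), with a median of −0.10 (0.25 with size factors, the opposite direction). BTG3 was that gene, at −0.59, but at −0.28 with size factors it did not meet the rule. BTG1 was highest, at 0.35 (0.74 with size factors, where it was called). With size factors 2 of the 5 adaptors, BTG1 among them, moved higher and none lower, against 28.7% and 26.4% of all genes.

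Of 7 poly(A)-binding proteins and their regulators, 3 moved lower and 1 higher, against 24.0% and 23.6% of all genes, and the median was −0.24. PABPC1L moved higher, at 1.23. PAIP2, which displaces PABP from poly(A), lay at −0.92, PABPC4 at −0.80 and PAIP1, which binds PABP and promotes translation, at −0.63 (−0.24 with size factors, where it was not called). PABPC genes are close copies of each other and reads could be split between them, so single members are uncertain. Among 11 repressors and decapping factors that act after or beside deadenylation, 2 moved higher and 2 lower (all genes: 23.6% and 24.0%), and the median was −0.03 (−0.11 with size factors). These were the decapping genes DCP1A (0.58), DCP2 (0.56, and 1.02 with size factors), EDC3 (−0.54) and EDC4 (−0.997). Without fraction 7 EDC4 and PABPC4 each lay at −0.31, and without fraction 1 PAIP2 lay at −0.47. DCP2 lay at 0.37 without fraction 7, and EDC3 and PAIP1 lay at −0.32 and −0.27 without fraction 2. TNKS1BP1, a further protein that binds the complex, had a relative shift of −0.26 and did not meet the rule, though with size factors it lay at −0.85 and was called lower.

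Of 17 measured factors that bring the complex to mRNAs, 12 moved higher and none lower, and their median relative shift was 0.81 (0.89 with size factors). Among all genes 23.6% moved higher and 24.0% lower. These factors started at control positions from 3.17 to 5.38, with a median of 4.24 beside 4.54 over all genes. Of genes that started near CNOT6, also at 4.24, 31.9% moved higher. Near CNOT7, at 3.66, 51.5% did, and near CNOT1, at 5.33, 3.30% did. The difference between these factors and the subunits of the complex was not tested. RC3H2, a roquin protein, was highest at 1.38 and CPEB1, a regulator of cytoplasmic polyadenylation, lowest at −0.15 (0.22 with size factors, the opposite direction). Part of this list, the GW182 genes and PUM2, was already known from earlier results on these data to lie high, so the count is not independent evidence. CNOT6 was the only CCR4-NOT member whose relative shift exceeded 0.50 in the main comparison.

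**Figure D5:**
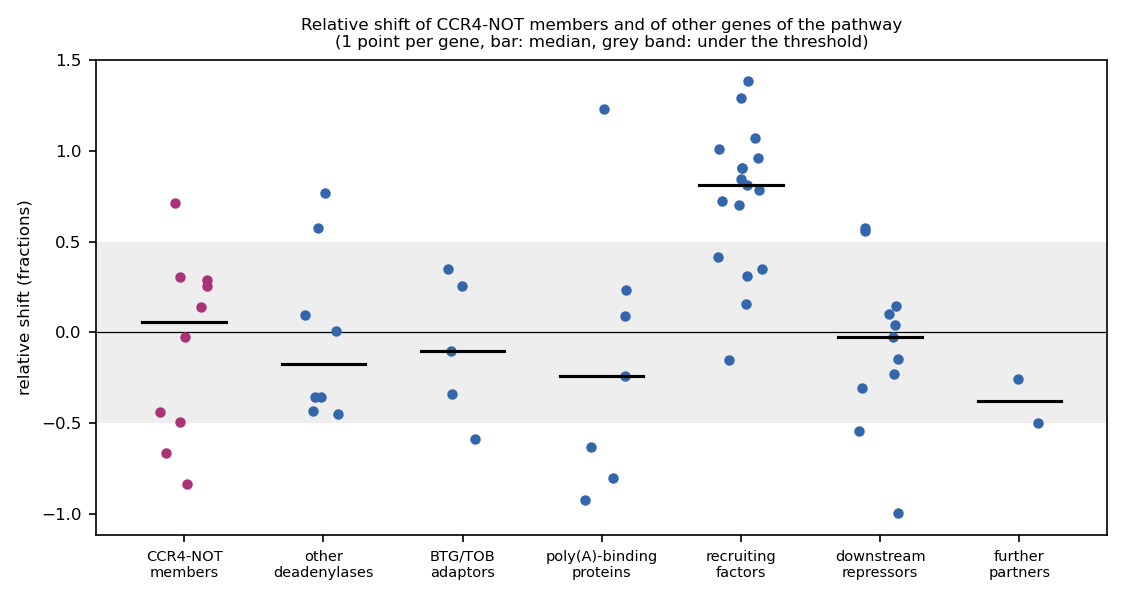
Relative shift in fractions (y axis) of the 10 CCR4-NOT members and of the measured genes of 6 further lists, 1 point per gene, with the median as a bar. Members are spread from −0.84 to 0.71 around a median of 0.06, and the recruiting factors lie around a median of 0.81.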

How the data were processed

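Total RNA from gradient fractions of 293S cells was, per the labels' protocols, extracted with Trizol and processed with the NSR method. The authors deposited 1 table whose 16 library columns are in the unit fraction, a gene's share in each gradient fraction, and 3 score columns, the mean fraction numbers and their difference. Values are for RefSeq exons, per the file headers, and the submitters' processing notes name the build hg19. Not given in the sources used here are the aligner, the counting method, the use of strand, any filters and the scaling between fractions. Recomputed positions differed from the deposited scores by at most 8.0e-15. Depth is unknown, so no interval is given.

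Members were matched by symbol, and roles, lists and rules were set with earlier results of these data known. Named genes were all members, C2orf29, the 2 nearest genes of each member, the highest and lowest gene of each list, and all that moved where at most 4 did. Shifts were computed in Python 3.11.15 with numpy 2.4.6 and pandas 2.3.3 over all 13148 genes. The call was tested on simulated data with planted shifts. Read sampling was their only noise, so variation between repeat gradients was not covered. Lengths and coding sequences came from 1 GENCODE 29 transcript per gene (99.5% of genes matched, Biopython 1.88 for alignment). That annotation is on another build, so no coordinates are given. Alternatives were size factors, a pseudocount of 1 percentage point, leaving out each fraction, the 50% point, the median over genes with no 0, thresholds of 0.25 and 1, and other boundaries for the later fractions.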

Additional observations from a re-analysis of the deposited data

How the results depend on the processing

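With 1 library per treatment and fraction, the spread between repeat gradients is unknown, and a share of 1 library can decide a position. The number of members moved lower was 2 in the main comparison. It was 1 without fraction 2 or 6 (19.5% and 22.3% of all genes) and 4 without fraction 3 or 4 (25.5% and 25.4% of all genes). At the 50% point 2 members moved higher and 4 lower (26.8% and 24.1% of all genes). At a threshold of 0.25 the counts were 4 and 4 (34.8% and 31.3% of all genes), and at a threshold of 1 they were 0 and 0, when 6.69% and 9.33% of all genes were called. The difference between catalytic and noncatalytic medians, 0.66 fractions, was 0.35 without fraction 2, 0.47 without fraction 6 and 0.45 without fraction 7, below 0.5, and its cause was not tested. Catalytic members also started lower in the control, at a median position of 4.51 against 4.92. The median change of the members' share in fractions 5 to 8, −33.2 percentage points, was −2.34 with size factors. By construction these remove most, but not all, of the change of the typical gene (all genes: −33.5 and −2.82). Of 120 values of single members under 12 alternatives, 104 kept their call, 13 were called moved only under the alternative, 3 lost their call and none of the calls changed sign. No paired analysis was possible because the labels give no replicate numbers and each group holds 1 library.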

Other observations

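The annotated 3′ untranslated parts of the members differ widely, and this comparison was chosen after the values were seen. CNOT3 and CNOT10, the members that moved lower, have short ones of 273 and 264 nt in the transcripts used, whereas CNOT6, which moved higher, has one of 4205 nt. CNOT6L and CNOT7 have 7044 and 5756 nt, with relative shifts of 0.31 and 0.14. CNOT1, CNOT2 and CNOT8 lie between, with 1007, 1077 and 1353 nt and relative shifts of −0.02, 0.29 and −0.49. RQCD1 has 2804 nt and −0.44. Apart from CNOT3 and CNOT10 at the low end the members did not follow the order of this length, since CNOT8 lay below CNOT1 and CNOT2, CNOT2 lay above CNOT7, and CNOT6L and CNOT7 lay below CNOT6. Over all genes in deciles of this length, the median relative shift went from −0.37 in the decile that holds CNOT3 and CNOT10 (189 to 352 nt) to 0.26 in that of CNOT6 (2895 to 4271 nt) and 0.40 in the longest (−0.55, 0.38 and 0.49 with size factors). In the decile of CNOT3 and CNOT10, 39.2% of genes moved lower and 16.9% higher, and in that of CNOT6 the values were 10.1% and 33.3%. The transcript of CNOT4 that was used has no annotated 3′ untranslated part and is left out, and which 3′ ends 293S cells use is not known from these files.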
